A study of Mus musculus with 16 samples.

Results

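Corticosteroids set how much sodium a collecting duct epithelium takes up, and 9 genes of that response were examined here in mIMCD3 cells treated with doxycycline (DOX). The 9 genes were taken by name, and all 9 were found among the 53354 genes of the TPM table (a level scaled by transcript length and by the library total) and among the 54393 genes of the count table. They comprise the receptors *Nr3c1* and *Nr3c2*, the steroid-inactivating enzyme *Hsd11b2*, the kinases *Sgk1* and *Wnk1*, the ubiquitin ligase *Nedd4l*, and the transport proteins *Scnn1a*, *Atp1b1* and *Slc12a2*. After DOX, 5 of them were called lower at 3 days and 4 at 6 days, *Scnn1a*, *Sgk1* and *Atp1b1* at both times, and none was called higher. One of the 4, *Hsd11b2*, was tested only because its DMSO libraries passed a filter on low values, and without it 3 of 8 genes were called at 6 days. For comparison, 7.22% of all tested genes were called lower at 3 days and 11.6% at 6 days. The 9 genes were chosen with earlier results of these data known, so these shares are given for scale only.

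As background, cortisol or corticosterone and aldosterone enter the cell and bind the glucocorticoid receptor (*Nr3c1*) and the mineralocorticoid receptor (*Nr3c2*), which then act on transcription. HSD11B2 inactivates glucocorticoids and so reserves the mineralocorticoid receptor for aldosterone in principal cells. SGK1, a kinase whose gene is induced by both hormones, phosphorylates the ligase NEDD4-2 (*Nedd4l*), which otherwise removes the epithelial sodium channel ENaC from the apical membrane. Sodium that enters through ENaC leaves across the basolateral membrane by the Na,K-ATPase.

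The mIMCD3 line comes from the inner medulla of a mouse transgenic for simian virus SV40, and its genotype is labelled wild type. All cells grew for 10 days on permeable filters in RenaLife medium with 5% FBS. The medium contained hydrocortisone, a glucocorticoid, as given in the study's methods, so every group carried a ligand of these receptors. Cells then received 2 µg/mL DOX or its vehicle DMSO, changed daily, for 3 days or 6 days, which gave 4 groups of 4 replicates. The 3-day and 6-day comparisons of DOX with DMSO share no library. Beyond the replicate numbers the labels do not say whether the replicates were separate cultures, so p-values measure the spread between these samples, which may be technical.

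Polyadenylated RNA was sequenced, and the total count per library ran from 16933343 to 23960860. At that depth 3 counts, taken as the smallest detectable amount, were worth 0.125 to 0.177 CPM (counts per 1e6 counts of a library, here TMM-scaled), a floor that covers counting error only. Replicates of a group correlated at 0.981 to 0.992 over genes, and replicate 1 of the DMSO group at 6 days correlated least with its group, at 0.981 on average. All 8 epithelial markers were at a mean of at least 1 TPM. Their summed TPM was 2660 to 2928 in DMSO and 1898 to 2198 in DOX at 3 days, and 2919 to 3215 against 1865 to 2123 at 6 days. Keratin genes weighed most in this sum. Taken singly, 3 of the 8 were called lower at 3 days and 5 at 6 days, against 7.22% and 11.6% of all tested genes. Of 10 principal cell markers 3 reached 1 TPM, and the water channel gene *Aqp2* averaged 0.151 TPM, so the labelled collecting duct identity was carried by few of its defining genes. The summed TPM of the 10, which do not include *Scnn1a*, was 8.70 to 10.4 in DMSO and 4.99 to 6.33 in DOX at 3 days, and 7.89 to 12.4 against 5.90 to 7.16 at 6 days, without overlap at either time. In CPM all DOX libraries lay below all DMSO libraries for 19.8% and 20.9% of all tested genes. Of the 10 markers 2 were tested, and 1, *Gata3*, was called lower at each time. *Tfcp2l1*, the highest of the 10 at 4.11 TPM on average, was not called at either time. No intercalated cell or fibroblast marker reached 1 TPM, while 1 of 8 endothelial and leukocyte markers, *Cd68*, did, and the sum of those 8 was 18.1 to 22.6 TPM in DMSO and 8.70 to 11.1 TPM in DOX at 3 days, and 23.9 to 25.1 against 11.8 to 13.3 TPM at 6 days. Whether these differences in markers had a part in the results on the 9 genes was not tested.

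RefSeq promoter windows of 300 bases (GRCm38.p6, 250 bases before to 50 after a start) were used for 4 of the 9 genes, *Sgk1* with 6 starts and *Atp1b1*, *Nr3c2* and *Wnk1*. Windows of *Scnn1a*, *Hsd11b2*, *Nr3c1*, *Nedd4l* and *Slc12a2* were not used here. Windows were searched on both strands for AGAACA, the hexamer bound by these receptors, for the GC box GGGCGG and for the TATA box TATAAA, motifs that do not overlap one another in letters. Of 32851 mouse promoter windows, 19.0% held the hexamer, 35.7% the GC box and 13.6% the TATA box. The hexamer occurred in 3 of the 6 *Sgk1* windows and in none of the windows of *Atp1b1*, *Nr3c2* and *Wnk1*. In the window of the *Sgk1* transcript Sgk1-202 it occurred 3 times, and 2 of these matches face each other with 3 bases between them as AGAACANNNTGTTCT. This palindrome begins 189 bases before the start and was held by 3 of the 32851 windows (0.00913%). The windows of *Sgk1* (chr10:21993640-21993939, plus strand) and *Atp1b1* (chr1:164458306-164458605, minus strand), both lowered at both times, are printed 5′ to 3′ with these motifs in capitals on either strand. A match is a description of the letters and was not tested for binding.
Sgk1: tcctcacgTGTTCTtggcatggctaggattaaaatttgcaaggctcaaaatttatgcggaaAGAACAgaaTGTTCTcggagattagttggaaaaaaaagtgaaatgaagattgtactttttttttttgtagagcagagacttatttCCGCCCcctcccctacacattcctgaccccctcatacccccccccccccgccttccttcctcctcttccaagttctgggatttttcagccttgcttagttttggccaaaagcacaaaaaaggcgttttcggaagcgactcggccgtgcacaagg
Atp1b1: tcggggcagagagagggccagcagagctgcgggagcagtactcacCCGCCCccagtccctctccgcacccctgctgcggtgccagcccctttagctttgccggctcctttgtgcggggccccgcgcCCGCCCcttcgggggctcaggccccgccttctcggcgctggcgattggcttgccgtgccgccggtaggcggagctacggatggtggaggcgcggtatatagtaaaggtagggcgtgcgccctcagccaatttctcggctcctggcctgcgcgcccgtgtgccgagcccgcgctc

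Levels were compared between genes on the TPM scale. In the 8 DMSO libraries *Atp1b1*, the beta subunit of the sodium pump, was the highest at 197 ± 19.9 TPM (SD, n = 8), followed by *Wnk1* at 90.9 ± 13.7 and *Nedd4l* at 42.6 ± 3.00 TPM. *Nr3c1* (22.9 ± 1.42 TPM), *Sgk1* (18.8 ± 1.73 TPM) and *Slc12a2* (16.7 ± 2.25 TPM) formed a middle group in which neighbours overlapped. *Scnn1a*, the alpha subunit of ENaC, had 2.83 ± 0.305 TPM and *Nr3c2* 2.74 ± 0.513 TPM, again with overlapping libraries. *Hsd11b2* was the lowest at 0.678 ± 0.154 TPM, below every library of *Nr3c2*. Within each DMSO library at 3 days the glucocorticoid receptor transcript exceeded the mineralocorticoid receptor transcript 6.54 to 10.1 times on the TPM scale. The order at the low end differed after 6 days of DOX, where *Nr3c2* (2.03 ± 0.260 TPM, n = 4) lay above *Scnn1a* (0.928 ± 0.113 TPM) without overlap.

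**Figure D1:**
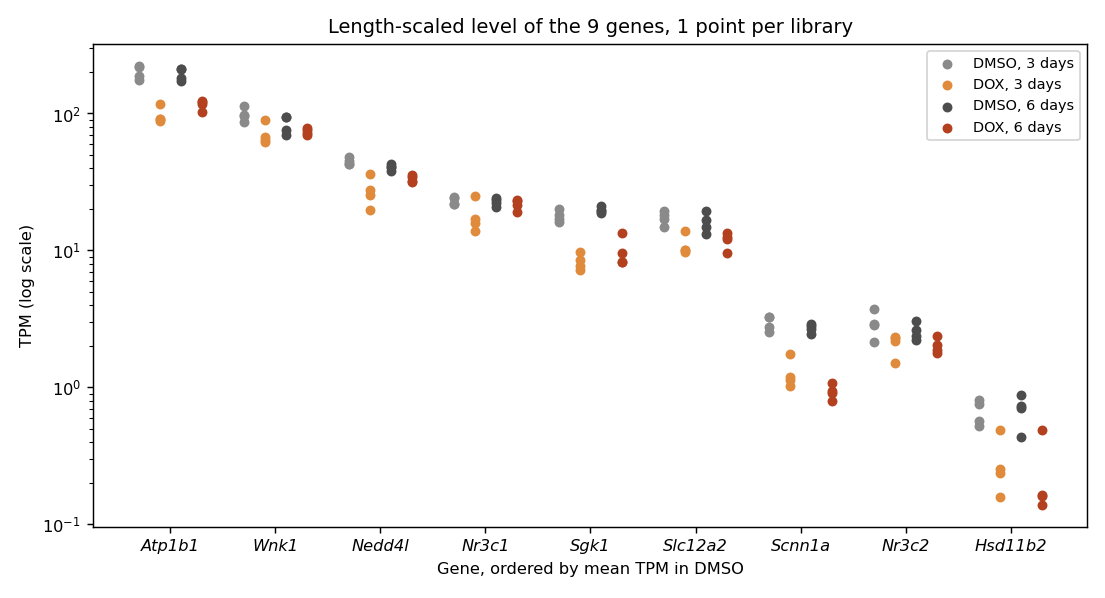
TPM on a log scale for each of the 9 genes in each of the 16 libraries, genes ordered by their mean in DMSO, with 1 point per library and colours for the 4 groups. The points run from 222 TPM for *Atp1b1* in a DMSO library at 3 days to 0.139 TPM for *Hsd11b2* in a DOX library at 6 days.

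For the comparisons, counts were fitted with edgeR, and a gene is referred to as called where glmTreat, which asks for a change beyond 1.2-fold, gave an adjusted p (Benjamini-Hochberg over 13234 tested genes) under 0.05. All 9 genes passed the filter of at least 1 CPM in at least 4 libraries, for which CPM was taken before TMM scaling. On the TMM-scaled values printed here, *Hsd11b2* reached 1 CPM in 3 libraries. Besides the shares called lower, 5.30% of all tested genes were called higher at 3 days and 10.0% at 6 days, and 0 of the 9 genes. All DOX libraries lay below all DMSO libraries in CPM for 7 of the 9 genes at 3 days (19.8% of all tested genes) and for 5 at 6 days (20.9%). The median log2 fold change of the 9 genes was -0.48 at 3 days and -0.38 at 6 days, and that of all tested genes was 0.00 at both times. Without *Hsd11b2*, whose DOX libraries were all under 1 CPM, the median of the other 8 was -0.47 and -0.35. In bulk RNA, fewer cells of a type and less RNA per cell cannot be told apart.

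**Figure D2:**
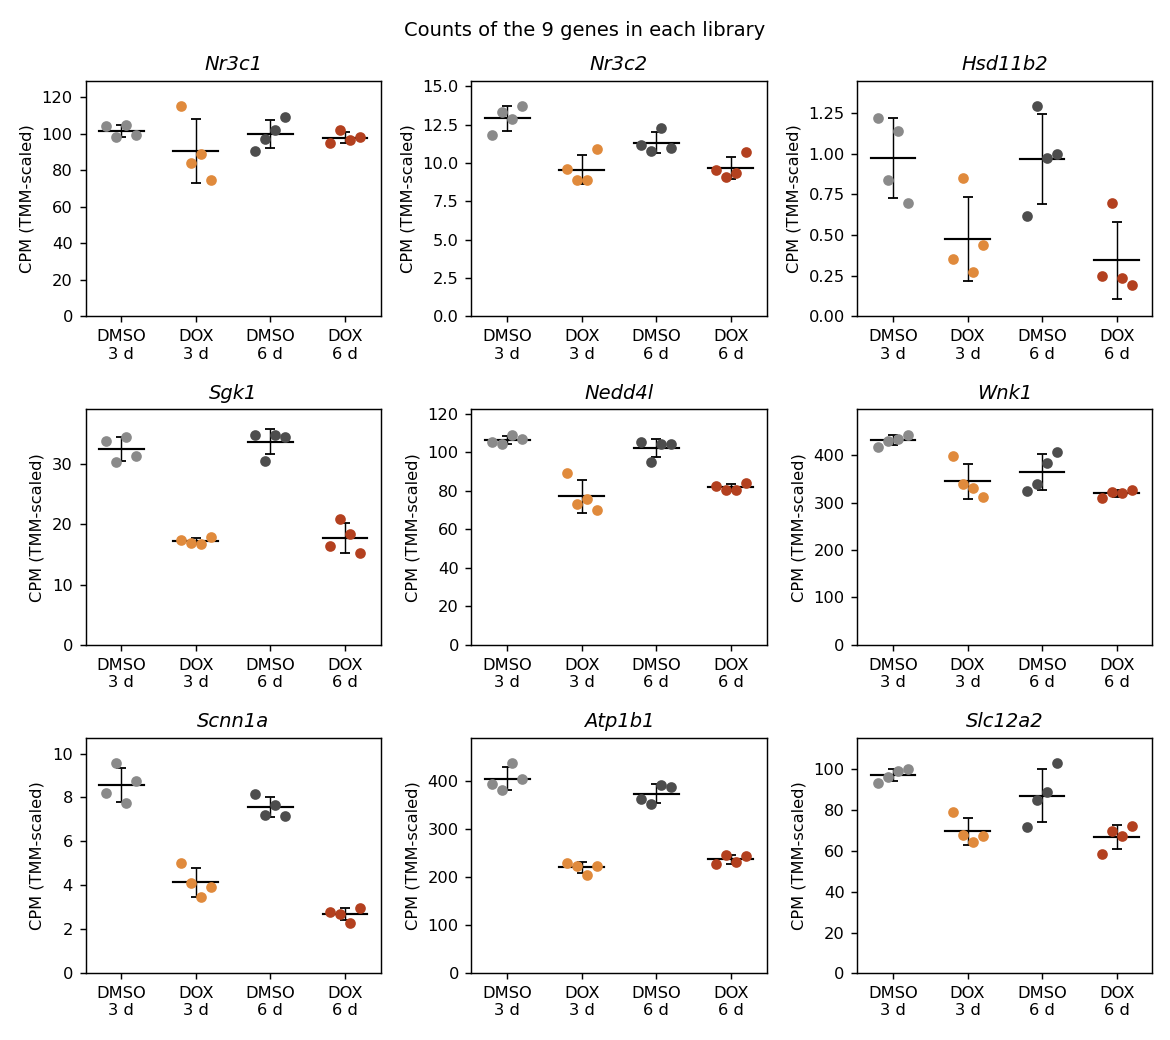
TMM-scaled CPM of each gene in each library (4 points per group), with the group mean as a line and the SD as an error bar, on axes that start at 0. For *Sgk1* and *Atp1b1* all DOX libraries lie below all DMSO libraries of the same time (*Sgk1* 16.8 to 18.0 CPM in DOX against 30.3 to 34.6 CPM in DMSO at 3 days), while the *Nr3c1* groups overlap.

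The receptors were not called at either time. The glucocorticoid receptor gene *Nr3c1* (ENSMUSG00000024431, chromosome 18 from 39410545 to 39519421, minus strand, GRCm38) had 104, 98.1, 105 and 99.3 CPM in the DMSO replicates 1 to 4 at 3 days and 115, 83.8, 88.9 and 74.6 CPM with DOX. DOX replicate 1 exceeded every DMSO library and the other 3 lay below them, so the groups overlapped. The log2 fold change was -0.16 (SE 0.09, adjusted p 1 by edgeR's glmTreat with Benjamini-Hochberg adjustment; 95% interval -0.34 to 0.01). At 6 days the means were 99.9 ± 7.88 CPM in DMSO and 97.7 ± 2.89 CPM in DOX (SD, n = 4 each), with all DOX libraries inside the range of the DMSO libraries. The log2 fold change was -0.03 (95% interval -0.21 to 0.14), and its sign turned in 4 of the alternatives, the offset for length and GC content with and without the replicate block (0.06 each), no filter beyond 1 count (0.00) and without replicate 4 of the DMSO group at 6 days (0.01).

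*Nr3c2* (ENSMUSG00000031618, chromosome 8 from 76899442 to 77245012, plus strand), the mineralocorticoid receptor gene, overlaps an exon of the noncoding *Gm10649* on the opposite strand, which had 7 counts over all libraries. It had 11.8, 13.3, 12.9 and 13.7 CPM in DMSO and 9.61, 8.87, 8.89 and 10.9 CPM in DOX at 3 days. All DOX libraries lay below all DMSO libraries. The log2 fold change of -0.44 (SE 0.09) missed the limit (adjusted p 0.0573, edgeR's glmTreat with Benjamini-Hochberg adjustment). It was called in 4 of 28 alternatives. Among these, the adjusted p was 0.032 without replicate 1 of the DMSO group and 0.0184 without replicate 4 of the DOX group. It was not called without DMSO replicate 4 (0.144), DOX replicate 2 (0.159) or DOX replicate 3 (0.148). Nor was it called by DESeq2 (adjusted p 0.596), by limma on log2(TPM + 0.1) (0.612), or with the offset for length and GC content (log2 -0.31, adjusted p 0.497). In TPM the DOX and DMSO libraries overlapped at both times. At 6 days the groups were again apart in CPM, at 11.3 ± 0.674 and 9.66 ± 0.684 (SD, n = 4 each), with a log2 fold change of -0.23 (95% interval -0.40 to -0.06, adjusted p 0.767).

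*Hsd11b2* (ENSMUSG00000031891, chromosome 8 from 105518755 to 105523988, plus strand) was detected with only 4 to 28 counts per library. Its DMSO libraries had 1.22, 0.835, 1.14 and 0.695 CPM at 3 days and 0.616, 1.29, 0.975 and 0.995 CPM at 6 days. Its DOX libraries had 0.351, 0.847, 0.271 and 0.437 CPM at 3 days and 0.251, 0.698, 0.236 and 0.196 CPM at 6 days. In each DOX group replicate 2 stood inside the DMSO range and the other 3 lay below it. Tested by edgeR with Benjamini-Hochberg adjustment, DOX changed it by -0.99 on the log2 scale after 3 days (SE 0.38, adjusted p 0.136) and by -1.44 after 6 days (SE 0.39, adjusted p 0.0123), so it was called at 6 days alone, and the difference between the times was not called (log2 -0.45, SE 0.55, adjusted p 0.614). Without replicate 2 of the DOX group at 3 days the 3-day change was called too (-1.43, adjusted p 0.0344), and at 6 days the call was lost by DESeq2 (adjusted p 0.0511) and by limma on log2(TPM + 1) (adjusted p 0.311). No DOX library exceeded 0.847 CPM, so the gene passed the filter only through the DMSO libraries, in which it was high, and its call at 6 days is no independent support for a change. Leaving out replicate 1 or 3 of DMSO at 3 days, or 2 or 4 of DMSO at 6 days, put the gene under the filter.

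Markers of other nephron segments, which an inner medullary line should lack, varied between libraries and are given beside *Hsd11b2* for that reason. Of 7 proximal tubule markers 4 were at a mean of at least 1 TPM. The summed TPM of the 7 was 31.6, 8.72, 15.3 and 6.07 in DMSO and 5.84, 11, 6.01 and 7.71 in DOX at 3 days. At 6 days it was 5.43, 39.2, 34.1 and 23.0 in DMSO and 21.5, 21.9, 5.96 and 6.31 in DOX. Replicate 2 of either DOX group, the highest for *Hsd11b2*, was also the highest for these markers, and among the DMSO libraries at 6 days replicate 2 was the highest and replicate 1 the lowest for both. Among the DMSO libraries at 3 days the order was the same for *Hsd11b2* and the markers, replicates 1, 3, 2 and 4 from highest to lowest. Replicate 1 of DOX at 6 days, with nearly as much marker TPM as replicate 2, had 0.251 CPM of *Hsd11b2*. Of 6 markers of the thick ascending limb and distal tubule 3 reached 1 TPM, with sums of 2.99 to 10.3 TPM in DMSO and 1.75 to 3.74 TPM in DOX at 3 days, and 2.07 to 10.7 against 1.46 to 7.49 TPM at 6 days. Their part in the *Hsd11b2* result was not tested.

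*Sgk1* (ENSMUSG00000019970, chromosome 10 from 21882184 to 21999903, plus strand), whose window with the palindrome is printed above, fell by nearly the same amount at both times. It had 33.8, 30.3, 34.6 and 31.3 CPM in DMSO and 17.4, 16.9, 16.8 and 18.0 CPM in DOX at 3 days. At 6 days it had 34.9, 30.6, 34.9 and 34.6 CPM in DMSO and 16.5, 20.9, 18.4 and 15.3 CPM in DOX. The groups were far apart at either time, with no DOX library above 20.9 CPM and no DMSO library below 30.3 CPM. By edgeR's glmTreat with Benjamini-Hochberg adjustment *Sgk1* fell by 0.91 on the log2 scale after 3 days (SE 0.08, adjusted p 9.29e-07) and by 0.92 after 6 days (SE 0.08, adjusted p 2.26e-07), and the difference between the times was -0.01 (95% interval -0.24 to 0.21). *Sgk1* was called at both times in all 28 alternatives. Of these, 16 left out 1 library each, and leaving out a library of the other time hardly moves an estimate.

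*Nedd4l* (ENSMUSG00000024589, chromosome 18 from 64887705 to 65217828, plus strand), the ligase that SGK1 restrains, overlaps an exon of the antisense gene *A330084C13Rik*, which had 59.4 counts over all libraries. It had 105, 104, 109 and 107 CPM in DMSO and 89.2, 73.3, 75.8 and 69.9 CPM in DOX at 3 days. At 6 days it had 105, 95.1, 104 and 104 CPM in DMSO and 82.6, 80.2, 80.5 and 84.0 CPM in DOX. The groups did not overlap at either time. It fell by 0.46 on the log2 scale at 3 days (SE 0.06, adjusted p 0.00556, edgeR with Benjamini-Hochberg adjustment) and was not called at 6 days, where the estimate was -0.31 (SE 0.06, adjusted p 0.248). With an offset for transcript length and GC content the 3-day estimate was -0.31 and no longer called (adjusted p 0.345).

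*Wnk1* (ENSMUSG00000045962, chromosome 6 from 119923969 to 120038672, minus strand), a kinase that controls cation chloride cotransporters and SGK1, had 418, 429, 435 and 443 CPM in DMSO and 398, 340, 331 and 311 CPM in DOX at 3 days. All DOX libraries were below DMSO, but replicate 1 was far closer to DMSO than the other 3. The log2 fold change of -0.32 (SE 0.07) was not called (adjusted p 0.319, edgeR's glmTreat with Benjamini-Hochberg adjustment), and without that library it was -0.40 and called (adjusted p 0.04). At 6 days the groups overlapped, at 364 ± 38.1 CPM in DMSO and 319 ± 7.32 CPM in DOX (SD, n = 4 each), with a log2 fold change of -0.19 (95% interval -0.33 to -0.05).

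*Scnn1a* (ENSMUSG00000030340, chromosome 6 from 125320659 to 125344943, plus strand) had the lowest log2 fold changes of the 9 genes, though those of *Hsd11b2* differed from them by less than 1 SE of *Hsd11b2*. It had 8.21, 9.56, 7.73 and 8.73 CPM in DMSO and 5.01, 4.13, 3.47 and 3.93 CPM in DOX at 3 days. At 6 days it had 8.17, 7.22, 7.64 and 7.18 CPM in DMSO and 2.81, 2.71, 2.31 and 2.99 CPM in DOX. The DOX libraries lay below the DMSO libraries at both times. Those of 6 days lay below those of 3 days in CPM, and between these DOX groups 25.4% of all tested genes did not overlap. On the TPM scale the DOX groups overlapped for *Scnn1a*, at 1.031 to 1.742 TPM at 3 days and 0.798 to 1.072 TPM at 6 days. The fold of DOX over DMSO was 0.483 at 3 days (log2 -1.05, SE 0.12, adjusted p 8.96e-06, edgeR's glmTreat with Benjamini-Hochberg adjustment) and 0.359 at 6 days (log2 -1.48, SE 0.12, adjusted p 2.13e-08), and both calls were made in all 28 alternatives. The channel's other subunits were almost absent, *Scnn1b* with 0 to 7 counts and *Scnn1g* with 0 to 6 counts per library, and were not tested.

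*Atp1b1* (ENSMUSG00000026576, chromosome 1 from 164437109 to 164458355, minus strand) overlaps an exon of *Nme7* on the other strand, so its reads are uncertain to that extent, though *Nme7* had 6930 counts over all libraries and *Atp1b1* at least 3784 in each. It had 394, 381, 437 and 405 CPM in DMSO and 230, 224, 205 and 223 CPM in DOX at 3 days. At 6 days it had 362, 353, 392 and 388 CPM in DMSO and 227, 246, 232 and 245 CPM in DOX. No DOX library reached the lowest DMSO library at either time. It fell by 0.87 on the log2 scale at 3 days (SE 0.06, adjusted p 1.62e-08, edgeR's glmTreat with Benjamini-Hochberg adjustment) and by 0.65 at 6 days (SE 0.06, adjusted p 1.96e-06).

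*Atp1b3*, another beta subunit of the pump, averaged 44.0 TPM over the 16 libraries and was not called (log2 0.09 at 3 days and 0.20 at 6 days).

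*Slc12a2* (ENSMUSG00000024597, chromosome 18 from 57878678 to 57946821, plus strand), the basolateral sodium, potassium and chloride cotransporter NKCC1 and a target of the WNK pathway, had 93.3, 96.2, 99.1 and 100 CPM in DMSO and 79.2, 67.7, 64.2 and 67.1 CPM in DOX at 3 days. At 6 days it had 71.8, 85.0, 88.7 and 103 CPM in DMSO and 58.4, 69.7, 67.1 and 72.3 CPM in DOX. The groups were apart at 3 days and overlapped at 6 days, where replicate 1 of DMSO was within the DOX range. It fell by 0.48 at 3 days (SE 0.09, adjusted p 0.0222, edgeR with Benjamini-Hochberg adjustment), a call lost without DMSO replicate 4 (adjusted p 0.0518) and without DOX replicate 2, 3 or 4 (0.0542, 0.0746 and 0.0541). It was also lost by DESeq2 (adjusted p 0.193), by limma on log2(TPM + 1) (0.106) and on log2(TPM + 0.1) (0.0706), and with an offset for transcript length and GC content (0.127). At 6 days the estimate was -0.38 (SE 0.09, adjusted p 0.118), and it was called without replicate 1 of DMSO (-0.46, adjusted p 0.0136).

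**Figure D3:**
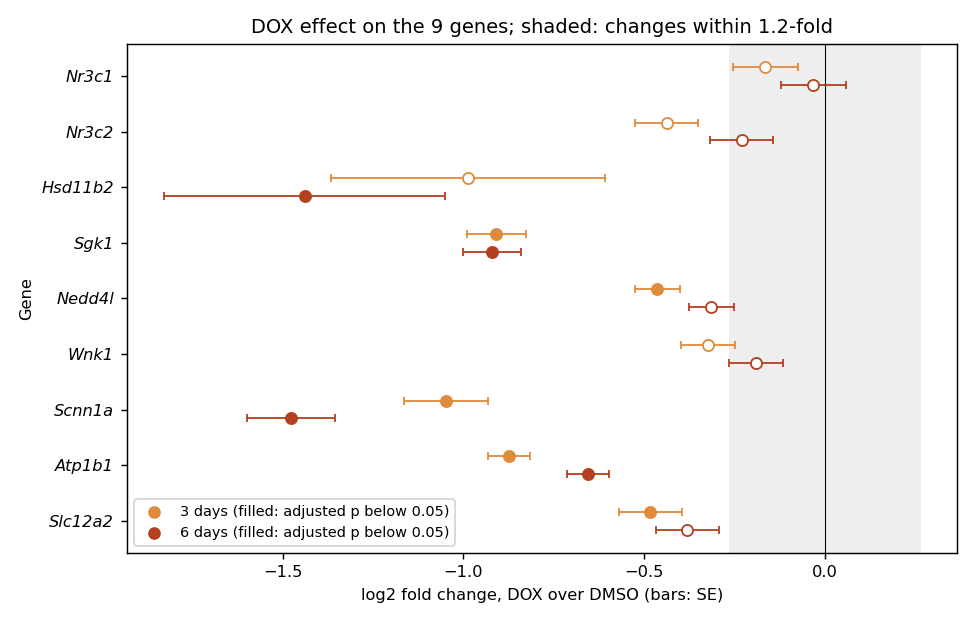
Log2 fold change of DOX over DMSO for the 9 genes at 3 days (orange) and 6 days (red), with bars of 1 SE, filled where the adjusted p was under 0.05 and shaded within 1.2-fold. All 18 estimates lie below 0, from -1.48 for *Scnn1a* to -0.03 for *Nr3c1*, both at 6 days.

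Replicate 1 of DOX at 3 days was the highest of its group for 6 of the 9 genes. These were *Nr3c1*, *Nedd4l*, *Wnk1* and *Slc12a2*, with the longest transcripts of the 9 (6436 to 11330 bases), and also *Scnn1a* and *Atp1b1*, with transcripts of 3499 and 2580 bases. The offset for length and GC content left the 3-day estimates of *Sgk1*, *Scnn1a* and *Atp1b1* at -0.92, -0.96 and -0.91 and all 3 called, and brought *Wnk1* to -0.12 and *Slc12a2* to -0.36, neither called, so that 3 of the 9 genes were called in place of 5. On the TPM scale the median of all genes was itself -0.15 at 3 days and -0.06 at 6 days (limma on log2(TPM + 1)). Relative to that median all 9 estimates stayed below 0 at both times, from -0.18 for *Nr3c2* to -0.89 for *Atp1b1* at 3 days. At 6 days they ran from -0.006 for *Nr3c1*, hardly below the median, to -0.90 for *Sgk1*. For 8 of the 9 genes, *Nr3c1* being the exception, the estimate was below 0 at both times under every alternative run.

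The DOX effect of the 9 genes was then compared between 6 and 3 days. None of the 9 was called by edgeR's glmQLFTest, against 17.0% of all tested genes. Before adjustment p was below 0.05 for 2 of them. These were *Atp1b1*, for which the log2 difference was 0.22 (95% interval 0.06 to 0.38, adjusted p 0.0673, edgeR with Benjamini-Hochberg adjustment), and *Scnn1a*, for which it was -0.43 (95% interval -0.76 to -0.10, adjusted p 0.0821). Without replicate 1 of DOX at 3 days 3 genes were called, *Atp1b1* (0.24, adjusted p 0.0284), *Nr3c1* (0.27, adjusted p 0.0247) and *Nedd4l* (0.23, adjusted p 0.0155). Without replicate 1 of DOX at 6 days *Atp1b1* was called (adjusted p 0.0458), and DESeq2 called it as well (adjusted p 0.0332). The offset for length and GC content called *Atp1b1* (0.24, adjusted p 0.0358) and *Scnn1a* (-0.58, adjusted p 0.0172), and with the replicate block added it called *Scnn1a* alone (-0.58, adjusted p 0.0176).

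Between 6 and 3 days in DMSO none of the 9 genes was called by edgeR, as was true of all tested genes (0%, with an unadjusted p below 0.05 for 172 and 0 called by DESeq2 or by limma), and no member of the 9 had such an unadjusted p. *Wnk1* was 1 of 9 genes whose groups did not overlap in CPM (log2 -0.24, 95% interval -0.39 to -0.10), against 12.2% of all tested genes. Between 6 and 3 days in DOX 1 of 9 genes was called, against 3.94% of all tested genes. That gene was *Scnn1a*, lower at 6 days (log2 -0.61, SE 0.13, adjusted p 0.0391, edgeR's glmTreat with Benjamini-Hochberg adjustment), a call lost without DOX replicate 1, 2 or 4 of 3 days (adjusted p 0.106, 0.0759 and 0.0584) or replicate 2 or 3 of 6 days (0.0831 and 0.134). The comparisons between times reuse the libraries of the DOX and DMSO comparisons.

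Genes around the 9 were followed as 8 lists that exclude them, and their counts are read beside the shares of all tested genes, 7.22% lower and 5.30% higher at 3 days and 11.6% lower and 10.0% higher at 6 days. The lists, too, were chosen with earlier results of these data known. Of 25 genes that glucocorticoids are known to induce, 24 were tested, and 7 were called lower and 3 higher at 3 days, 9 lower and 5 higher at 6 days. The list median was -0.31 and -0.32 on the log2 scale, against 0.00 for all genes. *Klf15*, a transcription factor of metabolic genes, rose from 0.819 ± 0.244 to 5.41 ± 1.26 CPM (SD, n = 4) at 6 days, a log2 fold change of 2.72 (SE 0.23, adjusted p 1.62e-08, edgeR with Benjamini-Hochberg adjustment), and *Cebpd*, another transcription factor, rose by 0.94. *Dusp1*, a phosphatase of MAP kinases, fell by 1.43 and *Glul*, glutamine synthetase, by 1.10 at 6 days. Among the textbook reporters of the receptor, *Fkbp5* fell by 0.48 at 3 days and 0.37 at 6 days (adjusted p 0.000911 and 0.0294, edgeR with Benjamini-Hochberg adjustment), while *Tsc22d3* (-0.15 and 0.01) and *Per1* (-0.24 and -0.09) were not called.

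The list of receptors, chaperones and cofactors had 17 of 19 genes tested, of which 2 were called lower at 3 days, and 2 lower and 1 higher at 6 days, which is near or under the shares of all tested genes at that time. The genes called were *Nrip1*, a corepressor (log2 -0.65 and -0.70), *Fkbp5*, a cochaperone of the receptor, and *Hsp90ab1*, its chaperone, which rose by 0.43 at 6 days. In prereceptor steroid metabolism, with 6 of 11 genes tested, 3 were called lower at 3 days and 1 at 6 days, *Srd5a1*, a steroid reductase, falling by 1.37. *Hsd11b1*, which regenerates active glucocorticoid, averaged 0.597 TPM and was under the filter.

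Of 24 genes in the network of SGK and NEDD4 proteins, all tested, 5 were called lower at each time and none higher. *Sgk2*, a relative of *Sgk1*, went from 3.45 ± 0.625 to 0.682 ± 0.197 CPM (SD, n = 4) at 6 days, a log2 fold change of -2.33 (SE 0.24, adjusted p 2.24e-07, edgeR with Benjamini-Hochberg adjustment). No DOX library of *Sgk2* reached 1 CPM at 6 days, and without it 4 of 23 genes were called lower. *Cnksr3*, a scaffold for the regulation of ENaC, fell by 0.56, *Slc9a3r1*, the scaffold NHERF1, by 0.47, and *Ndrg2* by 0.47 at 6 days. *Sgk3* (-0.19 at 3 days and -0.21 at 6 days) and *Nedd4* (-0.26 and -0.11) were not called.

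In the WNK network 9 of 12 genes were tested and 2 were called lower at each time. *Klhl2*, an adaptor of the ligase that degrades WNK kinases, fell by 0.65 and 1.03, *Wnk4* by 0.85 at 3 days (not called at 6 days, -0.40), and *Cul3*, the ligase scaffold, by 0.63 at 6 days. The kinases that WNKs activate, *Stk39* (0.25 and 0.26) and *Oxsr1* (-0.05 and 0.20), were not called, and *Wnk2* and *Wnk3*, at 0.0885 and 0.0731 TPM on average, were under the filter. In the list of ENaC and its proteases 9 of 12 genes were tested and 2 were called lower at each time. *Tmprss4*, a membrane serine protease, fell from 2.55 ± 0.698 to 0.593 ± 0.198 CPM at 6 days (log2 -2.10, SE 0.25), and *Tmprss2* fell by 0.76. No DOX library of *Tmprss4* exceeded 0.835 CPM, so it passed the filter only through the DMSO libraries, and without it 1 of 8 genes was called lower at each time. The channel-activating protease gene *Prss8* was at -0.33 at 3 days and 0.00 at 6 days, not called.

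Of 12 sodium pump subunits and FXYD regulators 5 were tested. *Fxyd3* was called lower at both times (log2 -1.35 and -2.43) and *Fxyd5* at 6 days (-0.89), and the list median was -0.89 at 6 days. No DOX library of *Fxyd3* exceeded 0.814 CPM, so it too passed the filter through DMSO alone, and without it 1 of the other 4 genes was called, at 6 days, when their median was -0.35. Of 24 tubule transporters 16 were tested, with 4 called lower at 3 days, and 4 lower and 1 higher at 6 days. *Kcnj16*, a basolateral potassium channel, fell by 0.93 at both times, the bicarbonate cotransporters *Slc4a4* and *Slc4a8* by 0.88 and 0.86 at 6 days, and *Slc9a2*, a sodium and proton exchanger, by 0.68, while *Slc12a4*, a potassium and chloride cotransporter, rose by 0.50.

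**Figure D4:**
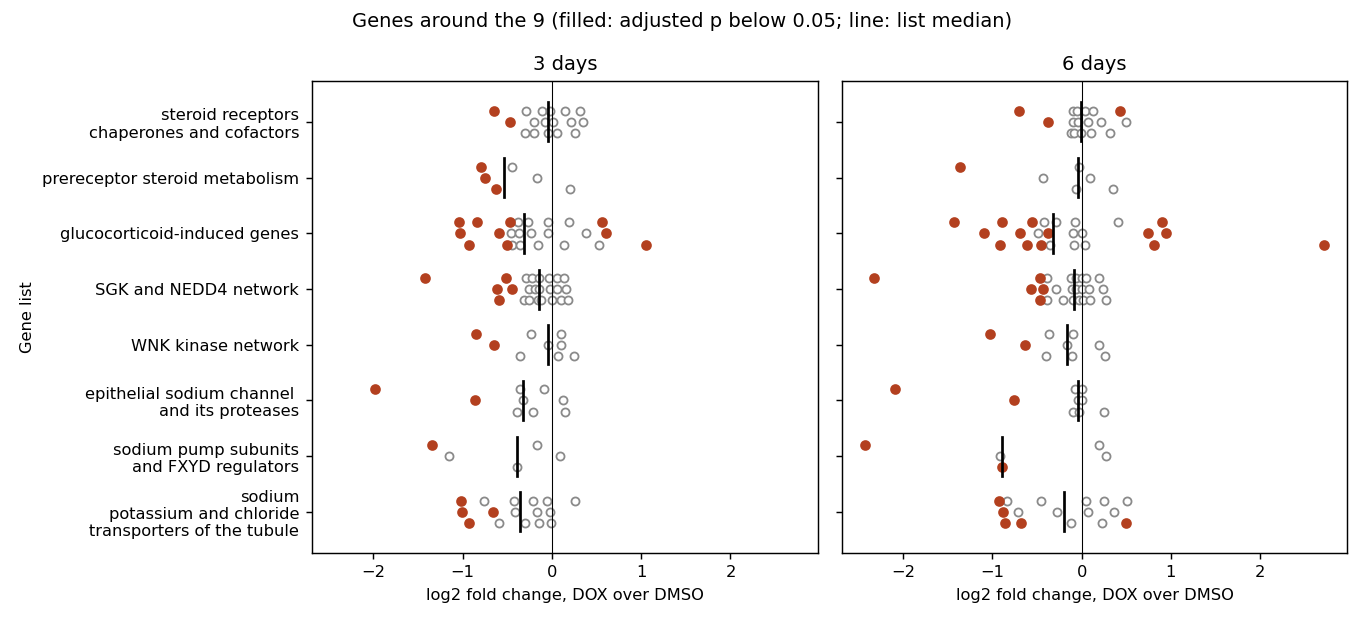
Log2 fold change of DOX over DMSO at 3 days (left) and 6 days (right) for every tested gene of the 8 lists, filled where the adjusted p was under 0.05, with the list median as a line. Called genes lie mostly to the left of 0, and the glucocorticoid-induced list has called genes on both sides, with *Klf15* farthest right at 2.72.

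The genes whose log2 CPM ran most alike with each of the 9 over the 16 libraries were listed by Pearson's r, as a description without a test, since the points share libraries and the group differences. *Sgk1* was most like *Glul* (r = 0.977) and *Sult1d1* (r = 0.967), *Scnn1a* like *Afap1l2* and *Sema7a* (r = 0.981 each), and *Atp1b1* like *Slc16a12* (r = 0.991) and *Hsp90b1* (r = 0.98). After the group means were removed, *Sgk1* and *Glul* correlated at 0.544, and *Sgk1* and *Sult1d1* at 0.26. *Wnk1* was most like *Ash1l* (r = 0.98, and 0.954 within groups) and *Nr3c1* like *Arhgap12* (r = 0.932, and 0.918 within groups). *Hsd11b2* was most like the transporter genes *Abcg2* (r = 0.949, and 0.874 within groups) and *Slc6a18* (r = 0.91, and 0.841 within groups). Among the 9 themselves *Sgk1* and *Atp1b1* were the most alike pair (r = 0.964, and 0.405 within groups), while *Nr3c1* and *Wnk1* were the most alike within groups (0.866).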

How the data were processed

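Gene tables of 16 mIMCD3 libraries (DMSO or DOX, 3 or 6 days, 4 each) were used. The authors aligned reads to GRCm38.p6 with STAR and quantified transcripts with Salmon 0.14.10 (version per the submitters' processing notes). They deposited estimated counts per gene, not normalized, and TPM per gene; whether counting used strand is not given in the sources used here. Positions and overlaps come from GENCODE annotation of the same build, and promoters from RefSeq.

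Estimated counts were rounded, and the 13234 genes reaching 1 CPM in 4 or more libraries entered the fit with edgeR 4.0.16 in R 4.3.3 (TMM, robust quasi-likelihood fit with 4 group means over 16 libraries, which gives a common spread; glmTreat at 1.2-fold for pairs of groups and glmQLFTest for the difference between times; Benjamini-Hochberg adjustment, limit 0.05, two-sided). SE is the log2 fold change divided by the square root of the F statistic, and 95% intervals are 1.96 SE. The CPM of the filter was the count over the library total, before TMM scaling. Total counts ran from 16933343 to 23960860. The 9 genes and all lists were chosen with earlier results of these data known. All 9 genes are named in every comparison; from each list the called genes with the largest change at 6 days, up to 4, and a set of fixed partners, 1 of which is not reported here, are named; *Atp1b3*, *Cd68* and the library-by-library proximal tubule sums were added after the values were seen.

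On simulated counts of 13047 genes for the 3-day comparison, glmTreat recovered 100% of genes changed by 2 on the log2 scale. Of those changed by 0.8 it recovered 79.2% (lower) or 64% (higher). The counts were drawn independently and with the same spread for every gene, so these rates need not hold for the real counts. Alternatives were RLE normalization, DESeq2 1.42.0, limma 3.58.1 on log2(TPM + 1) and log2(TPM + 0.1), no fold-change threshold (a threshold of 1.2 for the difference between times), other filters, no robust estimation, a replicate block, only the 8 libraries compared and leaving out each library; an offset for transcript length and GC content, with and without the block, was added after the data were seen.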

Additional observations from a re-analysis of the deposited data

Results flagged for a closer look

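Among the 36 groups of 4 libraries checked (9 genes in 4 groups), 3 held a library far from the other 3, by the gap to its nearest neighbour against the range of the group, and chance alone flags about 1 in 20 such groups. *Hsd11b2* had 0.698 CPM in replicate 2 of DOX at 6 days against 0.196 to 0.251 CPM in the others. *Sgk1* had 30.6 CPM in replicate 2 of DMSO at 6 days against 34.6 to 34.9 CPM, and *Nedd4l* had 95.1 CPM in the same library against 104 to 105 CPM.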

How the results depend on the processing

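The 5 genes called lower at 3 days became 8 with no fold-change threshold and 3 with the length and GC offset (3 with the replicate block added), and 4 to 6 when 1 library was left out. The 4 called at 6 days became 8 with no threshold and ranged from 3 to 5 without 1 library. For the difference between times, 0 became 1 by DESeq2, 2 with the length and GC offset and 1 with that offset and the replicate block, and 0 to 3 without 1 library. For DOX at 6 against 3 days, 1 became 0 by DESeq2, by limma on log2(TPM + 0.1) and on log2(TPM + 1), with no filter beyond 1 count, and with only the 8 libraries compared, and 0 to 1 without 1 library. In DMSO the count stayed at 0 under all alternatives. No called estimate changed sign. Of 1223 alternative estimates of single genes 23 lost and 21 gained a call. All 144 means of TPM without 1 library stayed within 1 SD. A mean of 4 libraries cannot move that far when 1 is left out, so this says nothing on stability. Deviations of same-numbered libraries correlated at -0.0476 on average over 24 pairs, from -0.433 to 0.34. Such an average cannot tell whether some groups were paired by replicate number. The replicate block gave the same counts of called genes, 5, 4, 0, 0 and 1. Of 896 list counts 57 moved by more than 1.5 times, or to or from 0. Without a threshold the glucocorticoid-induced list had 13 lower and 5 higher at 3 days, and limma on log2(TPM + 1) gave 0 higher. The cause of these differences was not tested. *Hsd11b2*, with 4 to 28 counts, is limited by depth.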
